A study of Mus musculus with 8 samples.

Results

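The genes of the cytosolic ribosomal proteins were followed in NIH3T3 cells, a mouse embryonic fibroblast line labelled wild type, that had received Mic-628 or vehicle for 1 day. Genes were taken by name, as symbols starting with Rpl, Rps or Rplp and a number, or Rpsa, with a mean of at least 10 counts per M counts of the library (CPM; M, mega) over the 8 libraries. Of 78298 transcripts in the deposited table, 89 matched the name and 81 of these reached the level. By the letters of the symbol alone, 32 were assigned to the small (40S) subunit and 49 to the large (60S) subunit. Paralogs such as Rpl7l1 were counted under their name, and whether each protein is part of the mature ribosome was not examined. The names of S6 kinases and pseudogenes were left out by the rule. The genes were thus selected on their mean CPM, and their abundance is given here as a description with no test. The genes just above the limit were Rpl29 at 60.2 CPM, Rps27l at 62.3 CPM and Rpl22l1 at 77.0 CPM. The genes just below it were Rps3a2 at 4.89 CPM, Rpl32l at 4.48 CPM and Rps3a3 at 4.17 CPM, so no gene lay close to the limit on either side.

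Each group had 4 libraries of poly(A) RNA, grown in the same serum-containing medium, and the label of each library gave a batch number from 1 to 4 that 1 vehicle and 1 Mic-628 library shared. The dose of Mic-628 and the vehicle's composition are not given in the sources used here. The title of the series concerns an inducer of the clock gene Period1, and the comparison shows how the transcripts of the translation machinery stood 1 day after treatment. Whether each library stands for its own culture is not in the labels. The p-values below therefore weigh differences against library-to-library spread, part of which may be technical. The counts on listed transcripts summed per library to 18.1 M at the lowest and 23.2 M at the highest, and the mean count per library was between 1270 and 55900 for each of the 81 genes. All 11 fibroblast markers examined were detected, with a summed level of 22200 to 23800 CPM in vehicle and 19700 to 20300 CPM in Mic-628 libraries. Of the 11, 5 fell, namely Col3a1, Fn1, Vim, Dcn and Col1a2, and 6 did not pass the test used below. Of these 6, Col1a1, Thy1, Pdgfrb and Pdgfra had log2 fold changes of -0.004 to 0.031, S100a4 -0.10 and Lum, at 1.22 CPM, -0.51. Among markers of other cell types, epithelial genes summed to at most 1.57 CPM and endothelial genes to at most 1.38 CPM. The 6 macrophage and blood markers summed to 14.6 to 18.1 CPM, nearly all from Csf1r and Cd68, with Adgre1 and Tyrobp at 0. The part of the fibroblast marker difference in the results below was not tested, and in bulk RNA fewer cells of a type and less RNA per cell cannot be told apart.

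Ribosomal proteins assemble with ribosomal RNA in the nucleolus into the 2 subunits that read messenger RNA and form peptide bonds. They are needed in nearly equal numbers, and their messenger RNAs are among the most abundant in growing fibroblasts. Most of these messenger RNAs begin with a cytosine followed by a run of pyrimidines, the 5′ terminal oligopyrimidine (TOP) motif, through which the mTORC1 kinase and the RNA-binding protein LARP1 control their translation and stability.

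The start regions of 7 genes are printed to show what the genes with the lowest and the highest fitted differences between treatments look like where transcription begins. Each is the RefSeq sequence of build GRCm38.p6 from 40 bases before the annotated start to 25 bases from it, 5′ to 3′ on the gene's strand, and capitals mark, at its full length, the pyrimidine run with the longest stretch within 20 bases of the start. The first 4 genes were among the lowest with Mic-628 and the last 3 among the highest. Rps29, the lowest gene, had no start region in the RefSeq table and is not shown.
Rplp2, chr7:141447611-141447675, plus strand: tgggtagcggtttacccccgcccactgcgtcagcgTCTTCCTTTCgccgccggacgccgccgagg
Rpl37, chr15:5116573-5116637, plus strand: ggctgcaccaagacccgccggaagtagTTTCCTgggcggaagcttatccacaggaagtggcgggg
Rpl39, chrX:37085198-37085262, minus strand: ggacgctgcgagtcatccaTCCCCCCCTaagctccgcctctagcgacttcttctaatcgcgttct
Rps15a, chr7:118116123-118116187, minus strand: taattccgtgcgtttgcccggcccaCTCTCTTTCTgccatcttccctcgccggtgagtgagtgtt
Rpl7l1, chr17:46782632-46782696, minus strand: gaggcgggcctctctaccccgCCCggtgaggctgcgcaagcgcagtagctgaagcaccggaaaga
Rps24, chr14:24490638-24490702, plus strand: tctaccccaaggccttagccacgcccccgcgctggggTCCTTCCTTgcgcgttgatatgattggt
Rpl4, chr9:64173347-64173411, plus strand: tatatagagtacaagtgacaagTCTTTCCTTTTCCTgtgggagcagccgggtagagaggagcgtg

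The marked run was 10 bases in Rplp2 and Rps15a, 14 in Rpl4, 9 in Rpl39 and Rps24, 6 in Rpl37 and 3 in Rpl7l1, a relative of Rpl7. In Rpl39, 8 of the 9 bases lay within 20 bases of the start. Long runs before or across the start therefore stood among both the lowest and the highest genes. The marked run crossed the annotated start in Rplp2 and Rps24 and lay wholly before it in the others, so it is not by itself a TOP motif. A cytosine at the annotated start followed by at least 4 pyrimidines was present in Rplp2 and Rps15a and not in the others. In Rps15a that stretch is not the marked one. Of the 81 genes, 61 had a start region in the RefSeq table. A stretch of at least 8 pyrimidines lying wholly within 20 bases of the start was found in 28 of the 61 (45.9%), against 15.9% of all 27025 start regions in the table. A cytosine at the annotated start followed by at least 4 pyrimidines was found in 12 (19.7%), against 2.49% of all regions. In windows of 300 bases, 250 before the start and 50 from it, searched on both strands, the letters CCGGAAG, the core of sites for ETS-family factors, were found in 25 of the 61 (41.0%) against 9.12% of all windows. The letters AAGATGGC, the core of YY1 sites, were in 5 (8.2%) against 2.88%. CACGTG, the E-box that the clock factors CLOCK and BMAL1 share with many others, was in 5 (8.2%) against 7.24% of all windows, and TATAAA was in 6 (9.84%) against 14.2%. These are matches of letters in windows of 1 annotated start per gene.

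Levels between genes were compared per exon length, in fragments per kilobase of exon and per M of the library total (FPKM). The 81 genes had a median of 836 FPKM over the 8 libraries. They ranged from 45.05 FPKM in Rpl7l1 to 3235 FPKM in Rplp1, a stalk protein that helps to recruit elongation factors. Also among the most abundant were Rpl32 at 2814 FPKM, Rps12, a protein of the 40S head, at 2605 FPKM and Rps9 at 1885 FPKM. The least abundant besides Rpl7l1 were Rpl29 at 76.85 FPKM, the paralogs Rpl39l at 98.92 FPKM and Rps27l at 117.4 FPKM, and Rps15a at 123.9 FPKM. FPKM depends on the length assigned to the row: the Rps15a row was 5170 nucleotides long with a coding length of 390, and the Rps20 row 3699 nucleotides long with a coding length of 357. The 10 transcripts with the highest FPKM of the whole table included 3 of the genes, the top 50 included 24, the top 100 included 51 and the top 200 included 68.

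With Mic-628, ribosomal protein transcripts differed little from vehicle, and 2 of the 81 fell at an adjusted p under 0.05 in edgeR's quasi-likelihood test. They were Rps29, a small zinc-binding protein of the 40S head, and Rpl37, a zinc-binding protein of the 60S subunit. None rose, where 2.25% of the 17128 transcripts tested were called lower and 2.13% higher. Of the 2038 other transcripts with a mean of at least 100 CPM, 5.69% were called lower and 5% higher. All 81 were tested. At an unadjusted p under 0.05, 11 were lower and 0 were higher, against 8.81% and 8.15% of all tested transcripts. DESeq2, limma-voom and limma-trend also called 0 of the 81 higher. Fitted log2 fold changes of Mic-628 over vehicle ran from -0.15 in Rps29 (0.902-fold) to 0.07 in Rpl7l1 (1.05-fold), with standard errors between 0.0308 and 0.0708. The fitted 95% intervals of all 81 genes lay within 1.2-fold in either direction, the lowest bound being 0.848-fold and the highest 1.11-fold. In this fit, without a batch block, edgeR shares information on spread between transcripts. The intervals can therefore be narrower than those from a gene's own library values.

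Although few genes passed the test, the fitted values were mostly slightly below 0. The log2 fold change was below 0 in 65 of the 81 genes and above 0 in 16, with a median of -0.035, where over all transcripts tested 51.6% were below 0 and the median was -0.004. Among the 2038 other transcripts with a mean of at least 100 CPM, 45.7% were below 0 and the median was 0.008. Both subunits showed it: 28 of 32 small-subunit genes were below 0 with a median of -0.044, and 37 of 49 large-subunit genes with a median of -0.024. The difference between the subunits was not tested. Fitted values of the 81 genes are not independent, because the genes moved together across libraries.

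**Figure D1:**
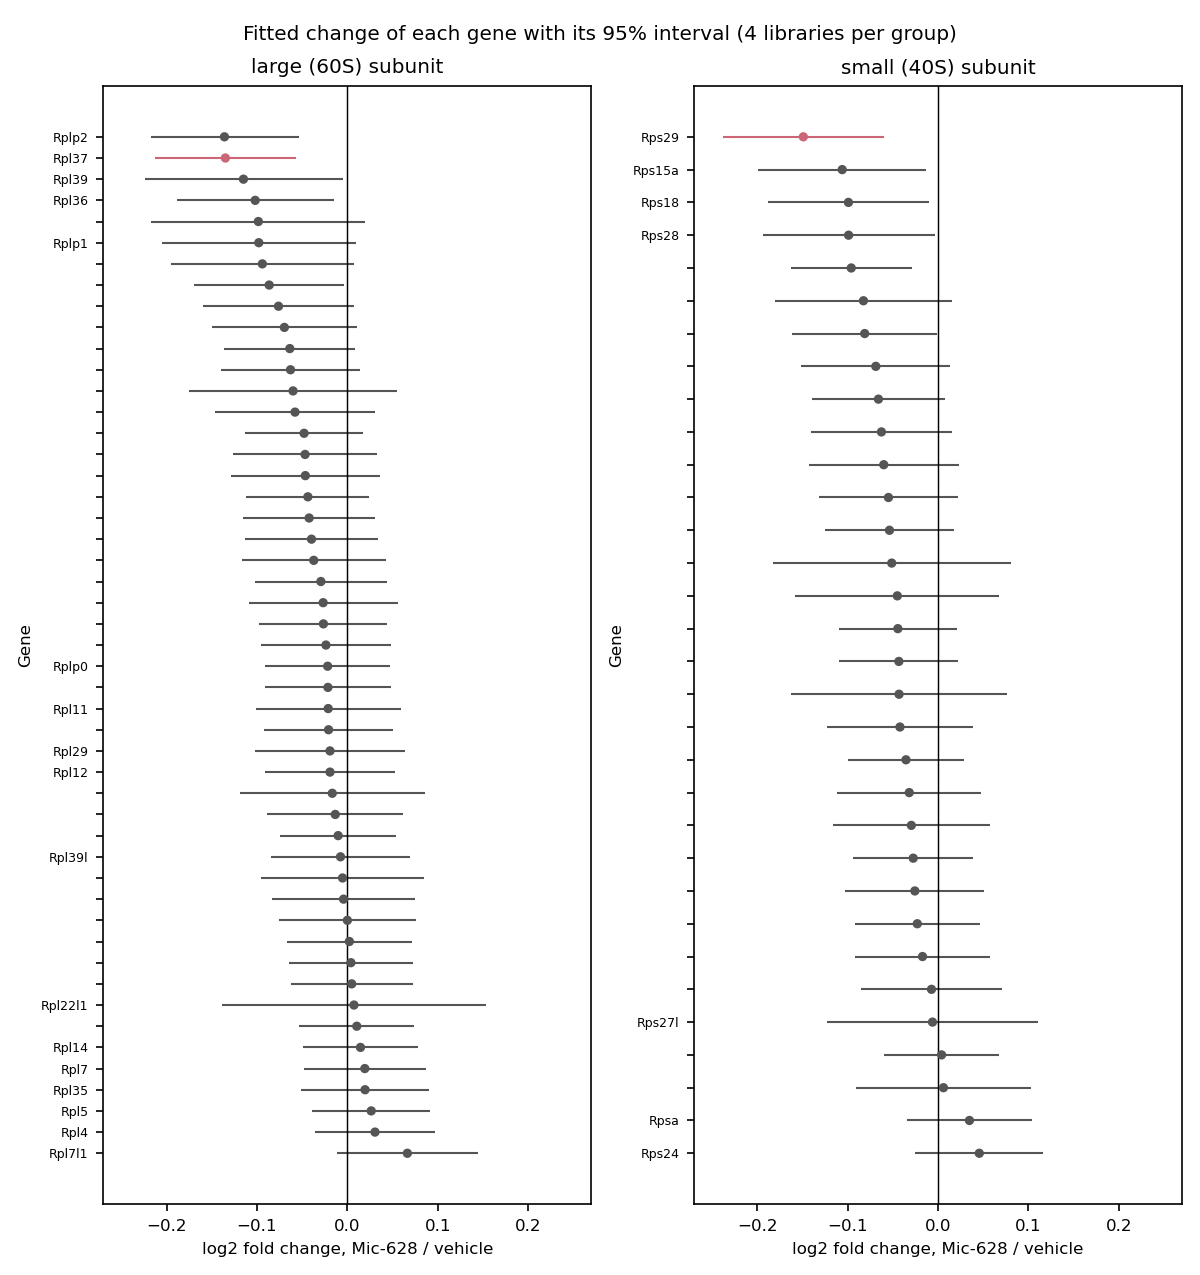
Each point is the fitted log2 fold change of 1 gene, Mic-628 over vehicle. Each line is its 95% interval from the edgeR fit to 4 libraries per group. Large-subunit genes are on the left and small-subunit genes on the right. The 2 genes past the threshold, Rpl37 and Rps29, are drawn in red, genes at either end of the order and those of the stalk, 5S and paralog lists are labelled, and no interval extends beyond 0.848-fold or 1.11-fold.

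Rps29 (chromosome 12, 69204496 to 69205960 on mm39, minus strand) had 824, 787, 773 and 848 CPM in vehicle libraries 1 to 4. It had 673, 686, 762 and 793 CPM in Mic-628 libraries 1 to 4. The lowest Mic-628 libraries were those of batches 1 and 2, and the groups overlapped through batch 4 of Mic-628 and batches 2 and 3 of vehicle. The mean went from 808 ± 33.9 CPM to 729 ± 58.2 CPM (SD, n = 4 each), and the gene fell by 0.15 ± 0.04 on the log2 scale (SE; edgeR adjusted p = 0.0476), with lower values in 4 of 4 batches. This call was lost without any single library other than Mic-628 4 (adjusted p between 0.0523 and 0.176), with library-size scaling alone (0.051), with a filter on 1 CPM in at least 4 libraries (0.0506), with limma-trend on FPKM (0.252) and with the replicate block in DESeq2 (0.058).

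Rpl37 (chromosome 15, 5146127 to 5148622 on mm39, plus strand) had 657, 632, 636 and 678 CPM in the vehicle libraries and 548, 585, 603 and 634 CPM in the Mic-628 libraries, in the order of the batches. Every Mic-628 library was below its batch partner, and the groups overlapped only because Mic-628 4 lay between vehicle 2 and vehicle 3. The mean went from 651 ± 21 CPM to 592 ± 36.0 CPM, and the gene fell by 0.14 ± 0.04 on the log2 scale (SE; edgeR adjusted p = 0.0397). Its call held without vehicle 1 or Mic-628 4 (adjusted p 0.0464 and 0.00939) and was lost without any of the other 6 libraries, with a highest adjusted p of 0.143 without Mic-628 1. It was also lost with limma-trend on FPKM (0.19 and 0.189) and with the replicate block in DESeq2 (0.0623).

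The 3 proteins at the tip and base of the ribosomal stalk and their neighbour Rpl12, which together form the platform for elongation factors, did not pass the test. Rplp2 (chromosome 7, 141027283 to 141031498 on mm39, plus strand) had 852, 822, 868 and 881 CPM in vehicle and 728, 747, 787 and 854 CPM in Mic-628 libraries. The fitted log2 difference was -0.14 ± 0.04 (SE; edgeR adjusted p = 0.0505), and the batch 4 Mic-628 library alone reached the vehicle range. With the batch number as a replicate block Rplp2 fell (edgeR adjusted p = 0.0296), as it did in DESeq2 and limma-voom without a block (0.0341 and 0.0355), so that 3 of the 81 genes were called lower by edgeR with the block, against 2 without it. Its partner Rplp1 had 1754, 1702, 1769 and 1917 CPM in vehicle and 1460, 1595, 1733 and 1884 CPM in Mic-628 libraries, with a log2 fold change of -0.10 ± 0.05 (edgeR adjusted p = 0.345). The lowest library was again Mic-628 1. The scaffold Rplp0 had a log2 fold change of -0.02 ± 0.03 (edgeR adjusted p = 0.808) and Rpl12 of -0.02 ± 0.03 (edgeR adjusted p = 0.839), with means of 2680 ± 59.4 and 2020 ± 89.7 CPM in vehicle.

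**Figure D2:**
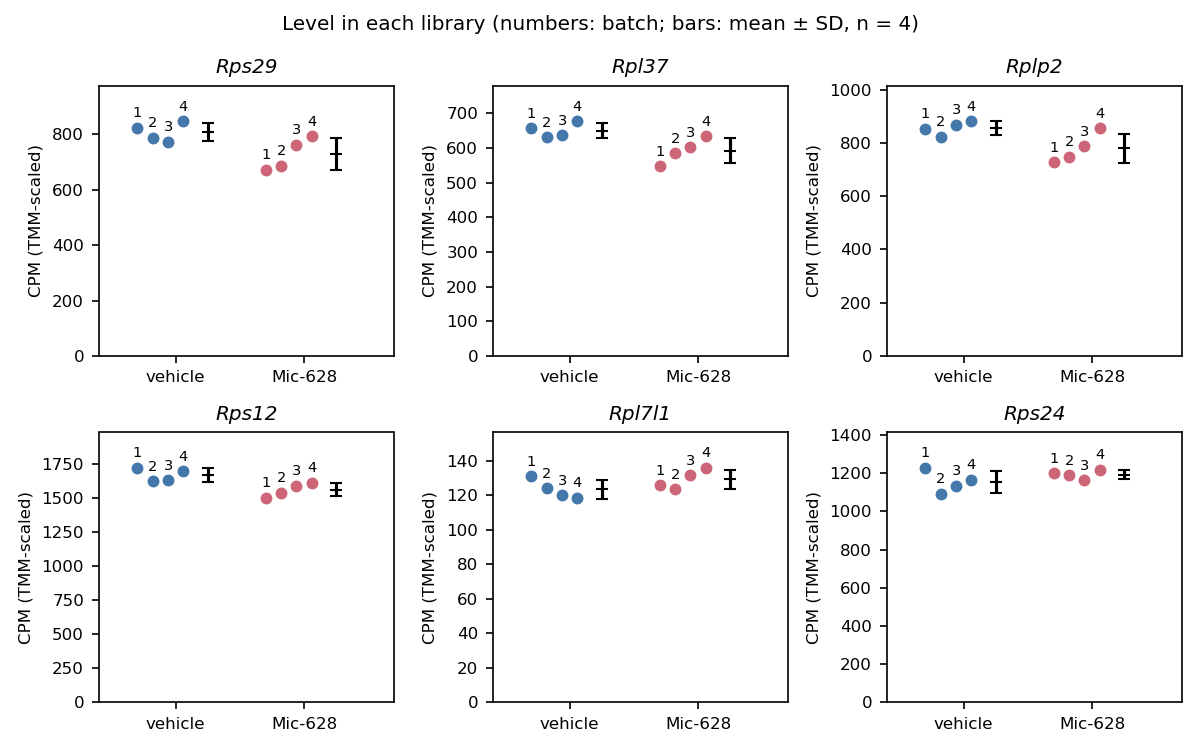
Points give the level of 6 genes in each library in CPM scaled with the trimmed mean of M values (TMM), spread sideways by batch number, and the bars beside them the mean ± SD of 4 libraries. Rps29, Rpl37, Rplp2 and Rps12 had their lowest value in the batch 1 Mic-628 library, and the groups overlapped in every gene shown but Rps12.

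Rps12 alone of the 81 genes had groups that did not overlap, where 5.07% of all tested transcripts were lower without overlap and 5.63% higher. It had 1720, 1623, 1627 and 1694 CPM in vehicle and 1500, 1538, 1587 and 1611 CPM in Mic-628 libraries. The difference was -0.10 ± 0.03 on the log2 scale (edgeR adjusted p = 0.101), and DESeq2 called Rps12 lower (adjusted p = 0.0454). A transcript on the opposite strand, Gm56964, at 39.3% of the CPM of Rps12, fell by 0.19 on the log2 scale (edgeR adjusted p = 0.0107), and it is uncertain whether their reads were told apart. Lower values in Mic-628 in all 4 batches were found for 10 of the 81 genes, against 12.1% of all tested transcripts. Rps29, Rpl37, Rplp2, Rplp1, Rps12, Rps15a, Rpl36 and Rps28 were among them. Higher values in all 4 batches were found for 0 of the 81, also against 12.1%.

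The other genes among the 8 lowest were Rpl39, which lines the exit tunnel of the 60S subunit, Rps15a, Rpl36, Rps18 and Rps28, and none passed the test. Their log2 fold changes lay between -0.12 and -0.10, and their edgeR adjusted p-values between 0.201 and 0.273. With no low-count filter, Rpl39 and Rps15a were called lower (edgeR adjusted p = 0.0243 and 0.0444). Rpl39 had 592, 523, 487 and 504 CPM in vehicle and 438, 465, 506 and 536 CPM in Mic-628 libraries, lower with Mic-628 in batches 1 and 2 and higher in batches 3 and 4. Rps28, of the mRNA exit site, had 729, 724, 746 and 780 CPM in vehicle and 617, 680, 706 and 777 CPM in Mic-628 libraries, so that only the first 3 Mic-628 libraries were below the vehicle range.

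At the other end, the highest fitted values belonged to Rpl7l1, Rps24, Rpsa, Rpl4, Rpl5, Rpl35, Rpl7 and Rpl14, and none passed the test. Rpl7l1 had 131, 124, 120 and 119 CPM in vehicle and 126, 123, 131 and 136 CPM in Mic-628 libraries, with a log2 fold change of 0.07 ± 0.04 (edgeR adjusted p = 0.385). Rps24, of the 40S body, had 1228, 1091, 1133 and 1166 CPM in vehicle and 1199, 1188, 1163 and 1217 CPM in Mic-628 libraries, with a log2 fold change of 0.05 ± 0.03 (edgeR adjusted p = 0.542). Here the vehicle library of batch 1 was the highest of all 8. Rpsa, the 40S protein also known as a laminin receptor, had 1870 ± 37.5 CPM in vehicle and 1910 ± 87.8 CPM in Mic-628 libraries, and Rpl4, which reaches into the exit tunnel, 2190 ± 88.8 and 2230 ± 20.2 CPM. Rpl5 and Rpl11, which with 5S ribosomal RNA form the particle that binds the p53 regulator MDM2 when ribosome assembly is disturbed, had log2 fold changes of 0.03 ± 0.03 and -0.02 ± 0.04 (edgeR adjusted p = 0.74 and 0.84). Of 9 paralogs, 6 were tested and 0 were called. Besides Rpl7l1, Rpl22l1, Rpl39l, Rps27l and Rpl36al had log2 fold changes between -0.008 and 0.007, with edgeR adjusted p-values of at least 0.951, and Rps27rt had a mean of 0.727 CPM in vehicle and 0.647 CPM in Mic-628 libraries. In Rpl22l1 the interval ran from -0.14 to 0.15, the widest of the 81, and its batch pairs ranged from -0.44 in batch 1 to 0.40 in batch 4.

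The batches differed in direction. In batch 1, all 81 genes were lower with Mic-628 than with vehicle, with a median log2 difference of -0.19 (0.875-fold). In batch 2, 58 were lower and the median was -0.028. In batches 3 and 4, 57 of the 81 genes were higher with Mic-628, with medians of 0.026 and 0.042. The 2038 other abundant transcripts had medians of 0.03, 0.007, 0.001 and -0.009 in batches 1 to 4. Without batch 1, the median over the 81 genes was 0.014, 31 of 81 were below 0, and 0 were called in either direction.

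**Figure D3:**
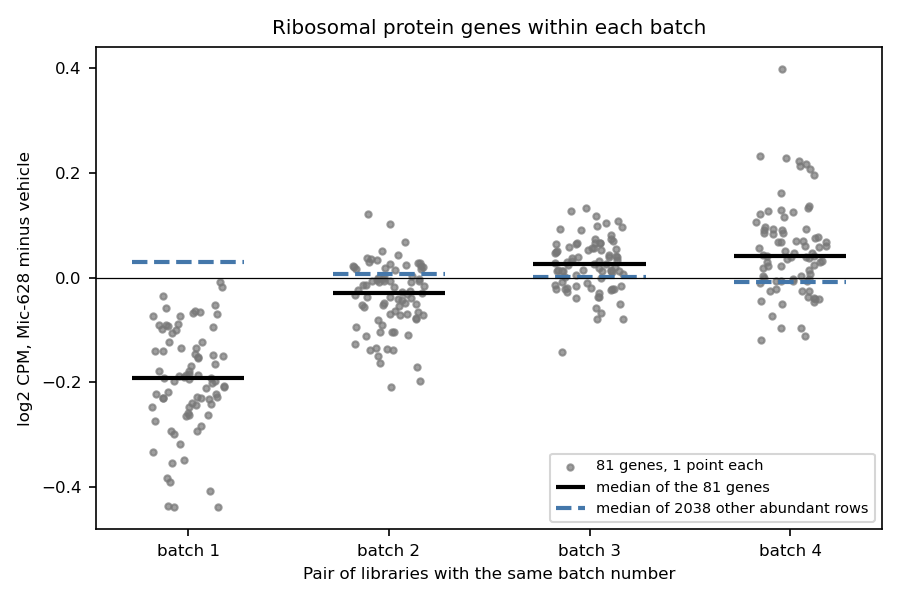
Each grey point is the log2 CPM difference of 1 ribosomal protein gene between the Mic-628 and the vehicle library of a batch, with the median of the 81 genes as a black bar and the median of 2038 other abundant transcripts as a dashed blue bar. The black bar lies at -0.19 in batch 1 and above 0 in batches 3 and 4, while the dashed bar stays between -0.009 and 0.03.

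Both libraries of batch 1 stood apart from their groups, in opposite directions. Relative to the mean of each gene over 8 libraries, the median of the 81 genes was 0.085 in vehicle 1, where 80 of 81 genes were above 0, and -0.10 in Mic-628 1, where 3 were above 0. It lay between -0.017 and 0.002 in vehicle 2 to 4. In Mic-628 2 to 4 it was -0.034, 0.003 and 0.057, with 14, 43 and 72 genes above 0. Mic-628 1 also had the fewest counts, 18.1 M, and vehicle 1 the next fewest, 20.3 M, and the part of depth in these values was not tested. Mic-628 4 was thus high for most of the genes, as vehicle 1 was. Without Mic-628 4, 9 of the 81 genes were called lower (Rpl34, Rpl36, Rpl37, Rpl38, Rplp2, Rps15a, Rps18, Rps28 and Rps29), while 2 were without vehicle 1 and 0 without any of the other 6 libraries. Over all transcripts tested, 619 were called in either direction without Mic-628 4 and 802 without vehicle 1. The other 6 refits called 426 to 750, against 749 with all 8 libraries.

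**Figure D4:**
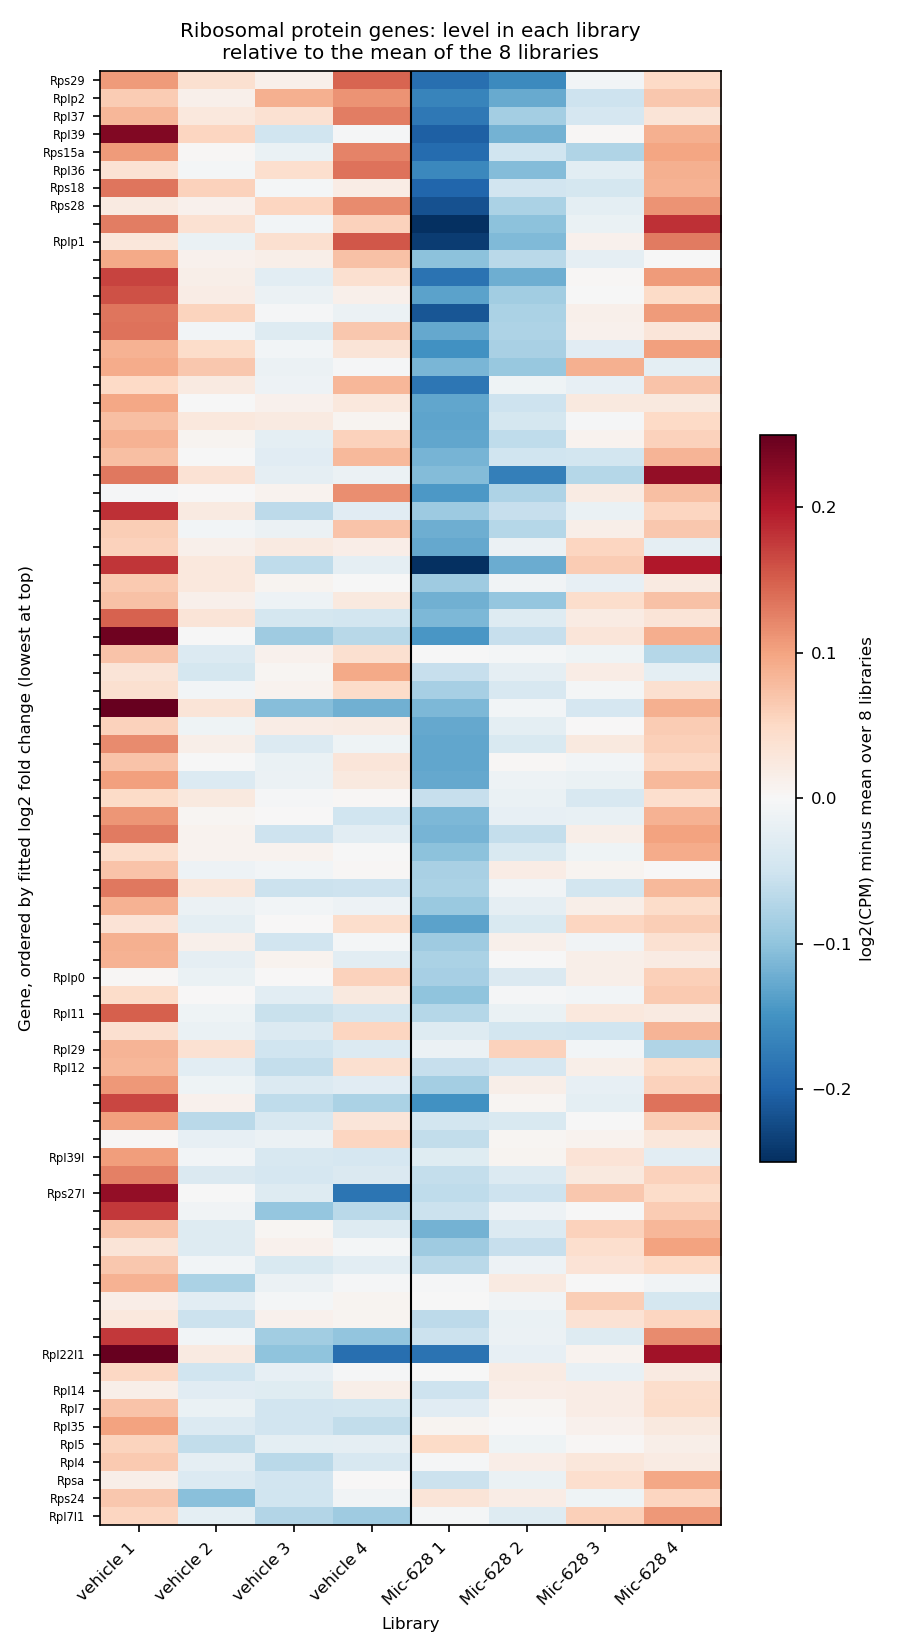
Colour gives the log2 CPM of each of 81 genes in each library minus the gene's mean over the 8 libraries, with genes ordered from the lowest fitted fold change at the top; the same genes are labelled, and the colour scale is limited to 0.25 in either direction. Vehicle 1 is red for 80 of the 81 genes and Mic-628 1 blue for all but 3, and Mic-628 4 is red for 72.

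Summed over the 81 genes, the share of counts was 7.50%, 7.08%, 7.01% and 7.15% in vehicle libraries 1 to 4 and 6.65%, 6.98%, 7.14% and 7.36% in Mic-628 libraries 1 to 4. The Mic-628 mean of 7.03 ± 0.30% (SD, n = 4) was 0.151 percentage points below the vehicle mean of 7.18 ± 0.216%, a difference smaller than the SD of either group. Only Mic-628 1 and Mic-628 2 lay below the vehicle range. Without Mic-628 1 the difference was -0.0231 percentage points, and without vehicle 1 it was -0.0472.

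The 81 genes moved together from library to library after the group means were removed. Over 8 libraries, the median correlation between 2 of the genes was 0.718, and 74.0% of 3240 pairs were above 0.5. Between 2 other abundant transcripts the median was 0.0279, with 18.6% above 0.5, and between a ribosomal protein gene and another transcript it was -0.12. These correlations share the same 8 libraries and their scaling, and are a description. Rpsa and Rps7 followed the rest most closely, with median correlations of 0.852 and 0.848 to the other genes. Rps26 (-0.0587), Rps2 (0.0112), Rpl29 (0.0953) and Rpl5 (0.224) followed them least. Rps26, which lies at the mRNA exit channel, had 538, 500, 516 and 527 CPM in vehicle and 512, 510, 508 and 488 CPM in Mic-628 libraries, so that Mic-628 4, high for most of the genes, was its lowest library. Rps2, at the mRNA entry channel, varied little, between 915 and 984 CPM over the 8 libraries, and its pseudogene row Rps2-ps13 had 768 CPM against 942 CPM of Rps2, so that reads of the 2 may have been split.

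The fitted difference varied with the length of the coding sequence, taken from GENCODE M21 for all 81 genes. The 28 genes with coding sequences of at most 400 nucleotides had a median log2 fold change of -0.073, with 24 below 0, and both called genes were among them. The 53 longer ones had a median of -0.027, with 41 below 0 and 0 called. At an unadjusted p under 0.05, 9 of the 28 shorter and 2 of the 53 longer genes were lower, where 8.81% of all tested transcripts were. Rps29 and Rpl37 have coding lengths of 168 and 291 nucleotides, whereas Rpl4 and Rpl7l1 at the upper end have 1257 and 738. Rpl41, the shortest at 75 nucleotides, had a log2 fold change of -0.07 (edgeR adjusted p = 0.378), and Rps24 had one of 0.05 at 399 nucleotides. Across the 81 genes, which share the same libraries, log2 coding length and log2 fold change had a Pearson r of 0.504 and a Spearman rho of 0.486, and across 1897 other abundant transcripts an r of 0.0112 and a rho of 0.027. Of these 1897, only 56 had coding lengths of at most 400 nucleotides, so the correlations cover unlike ranges of length.

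**Figure D5:**
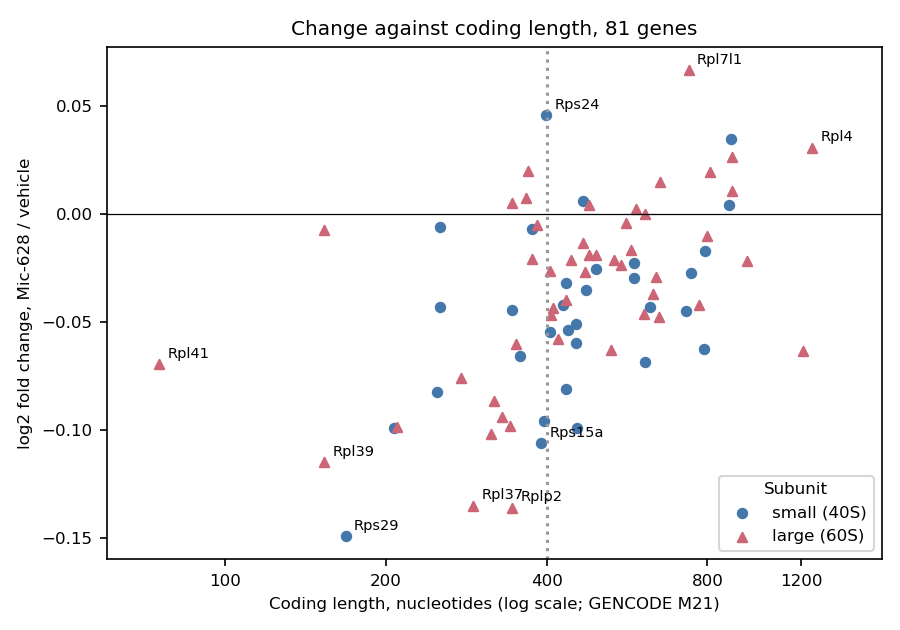
The log2 fold change of each of 81 genes, Mic-628 over vehicle, is plotted against its coding length on a log axis, with circles for the small and triangles for the large subunit and a dotted line at 400 nucleotides. The lowest genes, Rps29, Rplp2 and Rpl37, lie left of the line, and Rpl7l1 and Rpl4 lie to its right.

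Within batches, the Pearson r with coding length over the 81 genes was 0.453 in batch 1, 0.536 in batch 2, 0.092 in batch 3 and 0.0406 in batch 4. Thus the 2 batches in which most of the genes were lower also had the relation with length. The 56 other transcripts of at least 100 CPM with coding lengths of at most 400 nucleotides went the same way by batch. Their medians were -0.10, -0.035, 0.02 and 0.054 in batches 1 to 4, with 45 of 56 lower in batch 1 and 42 of 56 higher in batch 4. In the fit over all libraries, 37 of these 56 (66.1%) were below 0, 4 were called lower and 0 higher. Of all 2038 other abundant transcripts, 5.69% were called lower and 5% higher. Among the 1841 longer abundant transcripts, 44.6% were below 0, 105 were called lower and 96 higher. Their batch medians lay between -0.011 and 0.037. The part of transcript length in the differences of the ribosomal protein genes was not tested.

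Other genes of the translation machinery were read against the 4.37% of all transcripts tested that were called in either direction. Of 4 further ribosomal proteins whose names the rule did not take, Rack1 among them, 0 passed the test. Their median log2 fold change was -0.05, and that of Rack1, a scaffold on the 40S head, was -0.08 (edgeR adjusted p = 0.266). Among 18 elongation factor and other TOP genes, 0 were called and the median was -0.012. Elongation factor 2, Eef2, had 7350 ± 101 CPM in vehicle and 6980 ± 221 CPM in Mic-628 libraries (edgeR adjusted p = 0.207), and Eif3f 248 ± 9.09 and 233 ± 6.84 CPM (adjusted p = 0.151). Among 8 noncoding hosts of small nucleolar RNAs with TOP starts, 0 were called, and the lowest p belonged to Snhg8 at a log2 fold change of -0.10 (edgeR adjusted p = 0.203).

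Of 25 initiation factors, 2 rose and 0 fell, with a median log2 fold change of 0.018. They were Eif2s1 and Eif2s2, the alpha and beta subunits of the factor that brings initiator tRNA to the 40S subunit. Eif2s1 went from 160 ± 6.67 to 175 ± 5.76 CPM (log2 fold change 0.14 ± 0.04, edgeR adjusted p = 0.0247) and Eif2s2 from 341 ± 3.62 to 370 ± 17.1 CPM (0.12 ± 0.03, edgeR adjusted p = 0.0421). The call of Eif2s1 was lost without vehicle 2, 3 or 4 or Mic-628 1 or 4 (adjusted p 0.0548 to 0.117). That of Eif2s2 was lost without any library but vehicle 1 and Mic-628 2 (0.052 to 0.153) and with the replicate block in edgeR (0.0585). Of 20 genes of the mTORC1 and LARP1 arm, 0 rose and 1 fell, with a median of -0.018. It was Eif4ebp2, a repressor of cap-dependent initiation that mTORC1 phosphorylates, which went from 126 ± 2.27 to 115 ± 2.42 CPM (-0.12 ± 0.03, edgeR adjusted p = 0.024), and whose call was lost without vehicle 2, Mic-628 3 or Mic-628 4 (adjusted p 0.0821 to 0.117). Of 14 chaperones and import factors of ribosomal proteins, 1 rose and 0 fell, with a median of 0.027. It was Ltv1, an assembly factor of the 40S subunit, at 42.4 ± 1.6 CPM in vehicle and 47.3 ± 2.16 CPM in Mic-628 libraries (0.16 ± 0.04, edgeR adjusted p = 0.0367). Its call was lost without any library but vehicle 3 and Mic-628 2 (0.0524 to 0.154) and in DESeq2 (0.0743). All 4 of these calls were lost with limma-trend on FPKM and with the replicate block in DESeq2.

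Mitochondrial ribosomal proteins, which are encoded in the nucleus but build a separate ribosome, had fitted values mostly above 0. Of 78 genes, 23 were below 0, the median log2 fold change was 0.027, and 0 were called in edgeR. At an unadjusted p under 0.05, 8 were higher and 0 lower, where 8.15% of all tested transcripts were higher and 8.81% lower. The lowest p belonged to Mrps5, at 49.1 ± 1.24 CPM in vehicle and 53.6 ± 2.89 CPM in Mic-628 libraries (edgeR adjusted p = 0.0983). No test compared them with the cytosolic ribosomal proteins. Of 20 ribosomal protein genes mutated in Diamond-Blackfan anaemia, an inherited failure of red cell production, 0 rose and 1, Rps29, fell, with a median of -0.036. Of 7 genes at the rim of the exit tunnel 0 were called, and of 3 at the mRNA entry channel 0 were called.

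Reads of ribosomal protein genes can be shared with near-identical pseudogenes and with overlapping transcripts. The table held 322 pseudogene rows of these genes, of which 120 were tested and 9 had at least 10 CPM. Their summed level was 2200 to 2500 CPM per library, 3.3% of the counts on the 81 genes. Of the 120, 2 fell and 0 rose, 94 were below 0 and the median log2 fold change was -0.16. Most of these rows lay below 10 CPM. Among the 9 above it, Rps2-ps13, Rps2-ps10, Rps7-ps3, Rps23-ps1 and Rpl7a-ps10 had log2 fold changes of 0.07 to 0.13. Rpl3-ps1 and Rps26-ps1 had -0.02 and -0.007, and Rps18-ps4 and Rps18-ps6 had -0.12. The largest besides Rps2-ps13 were Rps18-ps4 and Rps18-ps6, which had identical values of 308 CPM, against 804 CPM of Rps18 itself. Overlapping transcripts of at least 10 CPM were present at 20 of the 81 genes, 22 in all, of which 18 lay on the opposite strand. On the same strand, Gm49804 had 117% of the CPM of Rps10, Gm28037 had 99.3% of that of Rpl24 and Gm45713 had 82.2% of that of Rpl13a. On the opposite strand, ENSMUSG00000140383 had 72.8% of the CPM of Rplp0 and D730044K07Rik 69.8% of that of Rpl30. The library kit keeps strand, but the use of strand in counting is not given in the sources used here, so the values of these genes are uncertain by the reads that may be shared.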

How the data were processed

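Poly(A) RNA libraries (4 vehicle, 4 Mic-628) were made with a stranded kit and read as paired ends, per the labels' protocols. The submitters' processing notes name bcl2fastq, STAR 2.7.10a, HOMER 4.11 and build GRCm39 (mm39), without roles. The authors deposited exon read counts per canonical transcript, which come in steps of a fraction and are used as estimated counts, rounded to whole numbers. They also deposited FPKM for the same rows, and values recomputed from the counts, exon lengths and header totals (19.6 M to 25.1 M) differed by at most 5e-04. Columns left unmatched numbered 0. The 81 genes, the other gene lists and the tests were chosen with earlier results of these data known, so no pattern here is independent support.

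All 17128 rows passing filterByExpr (minimum count 10) were fitted in R 4.3.3 with edgeR 4.0.16 (TMM factors 0.9946 to 1.007, quasi-likelihood F test, no block, Benjamini-Hochberg adjustment over all rows, threshold 0.05). Library values are CPM scaled with TMM, means are given ± SD over 4 libraries, and fold changes ± SE. Batch differences use log2 CPM with a prior count of 0.5. Genes were named by rule: called genes, the 8 highest and 8 lowest fold changes, the 5 most and 5 least abundant by FPKM, those nearest the CPM limit, members of the stalk, 5S and paralog lists, and up to 4 genes per other list with the smallest p. Rps2, Rps26 and Rpl41, the overlapping and pseudogene rows, and other genes outside this rule were chosen after their values were seen. Some genes that meet the rule are not reported here, though counts and medians include them.

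The labels state a shared batch, and its number was used to pair libraries in the batch differences and the replicate block, not in the main fit. Deviations from the group means correlated between -0.0949 and 0.0744 in same-numbered libraries and between -0.117 and 0.141 in others, over 10292 rows. By this measure same-numbered libraries were no more alike than others. Replicates differed by more than counting noise (chi-square per row 1.73 to 5.79). The fit was tested on simulated counts of this comparison with 16976 genes: with 50 genes changed at each size, 18 were recovered at 1.1-fold, 37 at 1.2-fold and all 50 at 1.5-fold, and 7 unchanged genes were called. Alternatives used DESeq2 1.42.0, limma 3.58.1, other scalings, filters, pseudocounts and CPM limits, a replicate block, and leaving out each library or batch. Start regions and coding lengths came from GRCm38 annotation by symbol, and none of its coordinates were joined to the deposited ones. Python 3.11.15 and matplotlib 3.10.9 were used for the figures.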

Additional observations from a re-analysis of the deposited data

Results flagged for a closer look

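Among 120 sets of 4 library values checked (59 named genes and the summed share, in each group), 6 held a library far from the other 3. Chance alone gives about 1 in 20, so this count is no more than chance would give. Of the ribosomal protein genes, Rpl32 had 1646 CPM in vehicle 1, where the other vehicle libraries lay between 1534 and 1543 CPM. Rpl35 had 563.3 CPM in vehicle 1, where the others lay between 502.8 and 512.8 CPM. Among the other genes, Rack1 had 2492 CPM in vehicle 1 (others 2406 to 2411 CPM) and Eif2s1 had 169.6 CPM in vehicle 1 (others 155.4 to 157.6 CPM). Nap1l1 had 600.7 CPM in Mic-628 1 (others 568.7 to 571.1 CPM), and Deptor, an inhibitor of mTOR, 31.39 CPM in Mic-628 2 (others 29.04 to 29.17 CPM). Of the 6, 4 were in vehicle 1, the library in which 80 of the 81 ribosomal protein genes were above their mean. Genes measured in the same library are not independent, so these 4 are not separate findings.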

How the results depend on the processing

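The log2 fold changes are small, and which genes were called depended on the method and on single libraries. Of the 81 genes, 2 were called lower in edgeR. With library size only it was 1, with no low-count filter 5, with a filter on 1 CPM in at least 4 libraries 1, in DESeq2 4, and with a threshold of 0.01 it was 0. With limma-trend on log2 FPKM it was 0 at a pseudocount of 1 and 0 at one of 0.1. With the replicate block it was 3 in edgeR and 1 in DESeq2. Leaving out 1 library or batch gave 0 to 9. The count of genes called higher was 0 under every one of these alternatives. The median log2 fold change of the 81 genes stayed below 0 under all scalings and tools, and over left-out libraries or batches it ran from -0.068 to 0.014, above 0 without batch 1. The share difference ran from -0.262 to -0.0231 percentage points.

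Over all rows, 749 were called: 277 and 273 with limma-trend at pseudocounts of 1 and 0.1, 330 at a threshold of 0.01, 624 with the replicate block in edgeR and 243 with it in DESeq2, and 292 to 802 with a library or batch left out. For 59 single genes, 1475 alternative values held 39 changes of sign and 107 calls gained or lost. The causes were not tested. In simulation the test recovered 18 of 50 genes changed by 1.1-fold, the smallest size simulated, so changes of that size were often not called there. The median log2 fold change of the ribosomal protein genes, -0.035, was a smaller change than this. How often such differences are called among the ribosomal protein genes, which moved together across libraries, was not tested.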
